A study of Mus musculus with 12 samples.

Results

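Gene expression in a distal and a proximal leg muscle was compared in mice labelled Dysf -/- for the dysferlin gene. Muscle fibres need the dysferlin protein to reseal breaks in the sarcolemma. The comparison was defined by the sample titles and took all 3 TA arrays and all 3 QF arrays of the line C57BL/10-SJL.Dysf (Dysf -/-, called Dysf_null here), 6 of the 12 arrays of the series. The other 6 arrays were 3 TA and 3 QF arrays of C57BL/10 mice (Dysf +/+, called Control), and were used for the shared estimate of spread and to show where the muscle difference departed from that of Control mice. From knowledge of the study, QF is the quadriceps femoris of the thigh, which is proximal, and TA is the tibialis anterior of the shin, which is distal. All mice were 3 weeks old, and no treatment or sex is given in the labels. The Dysf_null line carries the dysferlin allele of the SJL strain on a C57BL/10 background, so the strain and the allele differ from Control together. Each array held total RNA of whole muscle. The labels do not say whether the 3 replicates of each muscle are 3 animals, and the p-values therefore reflect spread between arrays that can in part be technical.

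Loss of dysferlin is known in humans both as a limb-girdle disease that begins in proximal muscles and as a distal myopathy. Muscles of the same leg differ before any disease in their position-specifying homeobox genes, in their mix of slow and fast fibres, and in how much fat and connective tissue lies around and between the fibres. The slow fibre programme uses its own set of myosin, troponin and tropomyosin genes, and the Z-disc holds proteins such as muscle LIM protein that respond to load.

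Values are normalized probe set intensities on the log2 scale, with a floor at 4.53 below which levels are not resolved. Differences are TA minus QF, with the standard error (SE) of a limma fit for 3 arrays against 3, so a negative value means lower in TA. Each p-value from limma was adjusted by the Benjamini-Hochberg method over the 10331 probe sets tested, and a probe set was called where that value was under 0.05. The fold of a gene whose lower group had every array at the floor is a lower bound and is written as "at least". Such a group adds no spread but still counts among the 8 residual degrees of freedom of the fit. The SE and p-value of that gene can therefore be too small. The QF arrays with the number 2 stood apart in both genotypes, correlating with the remaining arrays at a median of 0.876 in Dysf_null and 0.866 in Control, where each of the other 10 arrays gave 0.926 to 0.959. The spread within Dysf_null QF was wider than within Dysf_null TA (median SD per probe set 0.387 against 0.238). No probe set carried the name Dysf, so the genotype labels were not checked against the Dysf transcript. Of 10 genes that define skeletal muscle, only Mb, the oxygen store of the fibre, was called between the muscles. Acta1, Myh1, Tnnt3, Des and Atp2a1 gave differences between -0.17 and 0.07. Probe sets of the other genes lay further out or disagreed: -0.55 and -0.44 for Mylpf, -0.55 and 0.06 for Pvalb, -0.45 and 0.19 for Ckm, and 1.35 and -0.12 for Myh4, none of them past the threshold.

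In Dysf_null mice, TA had lower levels than QF of transcripts of fat cells and of 3 detoxification enzymes. TA had higher transcript levels of the neutrophil genes S100a8 and S100a9 and of the limb position genes Hoxa11 and Zic1. Fhl1 was also higher in TA, as were Mb by 1 of its 2 probe sets and the mitochondrial gene Sdhd. The calls of S100a8 and Zic1 were lost in 10 and 5 of the 12 fits that left out 1 array. Those of Mb, Sdhd and the detoxification gene Mgst1 were lost in 11, 8 and 5 of them. Cidea, a lipid droplet protein of brown fat, was 12.98-fold lower in TA. S100a9, a calcium-binding protein stored in neutrophils, was 6.67-fold higher, a size limited by the floor on 2 of its 3 QF arrays. In all, 31 of 10331 probe sets (0.3%) were called, 10 higher in TA (0.0968%) and 21 lower (0.203%). The 25 called probe sets with a gene symbol stood for 23 genes, 8 higher and 15 lower, and 6 called probe sets had no name. The 3 TA arrays and the 3 QF arrays did not overlap in any of the 31. Over all probe sets tested, 590 (5.71%) were higher in TA without overlap and 466 (4.51%) lower.

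**Figure D1:**
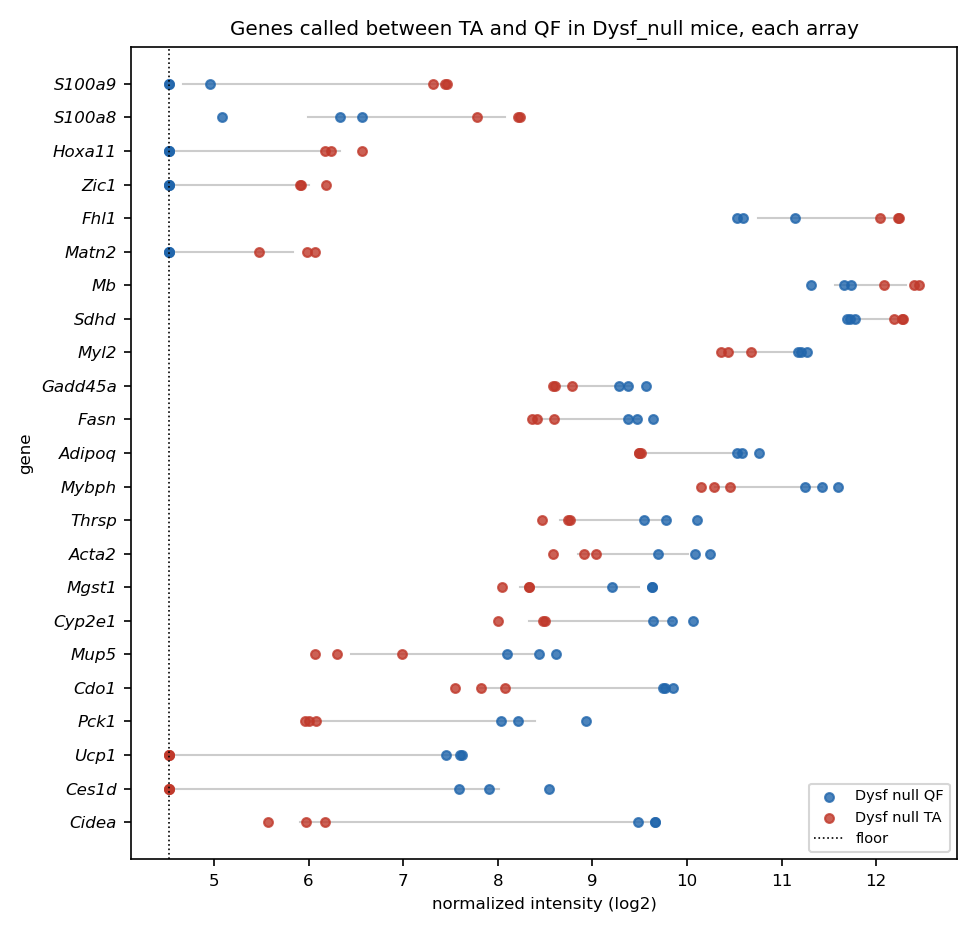
Normalized log2 intensity (x axis) of the 23 named genes called between TA and QF in Dysf_null mice, 1 point per array, with a grey line joining the group means and the floor dotted; a gene with several called probe sets is shown by that with the largest difference. The QF and TA points of every gene are separate, and Ucp1 and Ces1d lie at the floor on all 3 TA arrays, and Hoxa11, Zic1 and Matn2 do so on all 3 QF arrays.

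The upstream regions of genes that lead the fall and the rise are shown so that their sequence can be set beside their levels. They come from RefSeq on GRCm38.p6, are 250 bases long and end just before the annotated start of the gene, and are written 5′ to 3′ on the gene's strand. Capitals mark matches, on either strand, to any of 6 short motifs. The core promoter box bound by TBP was searched as TATAAA. A C/EBP-type site was searched as TTGCNNAA. The half-site of nuclear receptors was searched as AGGTCA, and that of steroid receptors was searched as GGAACA. Erythroid factor sites of the type bound by Gata1 were searched as GATAAG. Sites of the type bound by TEAD factors were searched as CATTCC. Ucp1, the uncoupling protein that gives brown fat its heat, lies on chromosome 8 (chr8:83290098-83290347, plus strand). Pck1, which makes the glycerol backbone of stored fat, lies on chromosome 2 (chr2:173152823-173153072, plus strand). S100a8 (chr3:90668821-90669070, plus strand) and S100a9 (chr3:90695722-90695971, minus strand) are neighbours on chromosome 3.
Ucp1: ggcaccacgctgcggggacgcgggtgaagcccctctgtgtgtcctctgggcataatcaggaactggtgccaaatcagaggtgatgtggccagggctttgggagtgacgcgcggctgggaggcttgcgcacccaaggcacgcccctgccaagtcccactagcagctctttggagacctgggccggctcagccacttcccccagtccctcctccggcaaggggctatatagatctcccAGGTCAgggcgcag
Pck1: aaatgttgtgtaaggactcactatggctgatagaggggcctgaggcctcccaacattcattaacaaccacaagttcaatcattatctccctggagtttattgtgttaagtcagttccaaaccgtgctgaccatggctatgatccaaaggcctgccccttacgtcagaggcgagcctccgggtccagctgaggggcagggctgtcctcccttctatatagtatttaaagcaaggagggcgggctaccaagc
S100a8: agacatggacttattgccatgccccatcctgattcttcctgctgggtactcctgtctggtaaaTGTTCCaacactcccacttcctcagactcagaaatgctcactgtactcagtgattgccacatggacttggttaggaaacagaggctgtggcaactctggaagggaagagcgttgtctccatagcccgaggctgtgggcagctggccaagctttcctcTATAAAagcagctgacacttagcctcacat
S100a9: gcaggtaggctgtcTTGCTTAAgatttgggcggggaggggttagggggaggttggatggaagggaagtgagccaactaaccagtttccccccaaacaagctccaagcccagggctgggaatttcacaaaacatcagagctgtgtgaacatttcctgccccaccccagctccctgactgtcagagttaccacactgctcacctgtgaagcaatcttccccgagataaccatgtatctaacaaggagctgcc

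The Ucp1 window held AGGTCA at -14 from the start, a motif found in 14.0% of the 32851 RefSeq windows of this length. The S100a8 window held TATAAA at -30 (12.4% of windows) and GGAACA on the other strand at -187 (13.3%), and the S100a9 window held TTGCNNAA at -236 (9.56%). GATAAG and CATTCC, found in 6.55% and 12.6% of windows, matched none of the windows printed. The windows of Pck1, and of the fat cell genes Adipoq, Fasn and Thrsp, held none of the 6. A match describes the letters only.

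Fat cell transcripts were lower in TA. Of 32 fat cell markers measured, 6 fell (beside 0.203% of all probe sets), 0 rose and 26 did not pass. Without overlap between the muscles 18 were lower, beside 4.51% of all probe sets. A negative difference was seen for 27 of the 32, and the median over the list was -0.62, against 0.02 over all probe sets tested. The summed normalized intensity of the list was 20539.8 to 23374 on the TA arrays and 27359.9 to 29153 on the QF arrays. In whole muscle, fewer fat cells and less RNA per fat cell cannot be told apart.

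Among proteins of the lipid droplet and of heat production, Cidea (99994_at) stood at 9.66, 9.49 and 9.66 on the QF arrays and at 5.97, 6.17 and 5.58 on the TA arrays. Every TA array lay far below every QF array, and the difference was -3.70 ± 0.27 (adjusted p = 5.2e-05). Ucp1 (99507_at) stood at 7.45, 7.62 and 7.60 in QF and at the floor on all 3 TA arrays, a level at least 8.19-fold lower (-3.03 ± 0.27, adjusted p = 0.000144). The other probe set of Ucp1 (161422_f_at) gave -1.42 ± 0.51 and did not pass (adjusted p = 0.739). Cidec, a droplet protein of white fat, gave -1.88 ± 0.36 and missed the threshold (adjusted p = 0.0557).

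Of the enzymes that build fat, Pck1 (160481_at) stood at 8.22, 8.93 and 8.03 in QF and at 6.01, 5.96 and 6.08 in TA. It fell by 2.38 ± 0.27 on the log2 scale (adjusted p = 0.00091), with the TA arrays close together and the QF arrays more spread. Fasn, the fatty acid synthase, stood at 9.38, 9.47 and 9.65 in QF and at 8.41, 8.60 and 8.37 in TA (-1.04 ± 0.15, adjusted p = 0.00518). Thrsp, a nuclear protein that promotes lipid synthesis, stood at 9.54, 10.11 and 9.78 in QF and at 8.74, 8.76 and 8.47 in TA (-1.15 ± 0.17, adjusted p = 0.0081). Neither Fasn nor Thrsp overlapped between the muscles. The call of Thrsp was lost without Dysf_null_TA 3 (adjusted p = 0.0583).

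Of the hormones and regulators of fat cells, Adipoq, which encodes adiponectin, stood at 10.58, 10.53 and 10.76 in QF and at 9.50, 9.50 and 9.51 in TA. The 3 TA arrays were nearly equal, and the gene was 2.18-fold lower in TA (-1.12 ± 0.11, adjusted p = 0.000254). Members named after their values were seen gave smaller or less certain differences: the transcription factors Pparg (-0.97 ± 0.28, adjusted p = 0.408) and Cebpa (-0.65 ± 0.19, 0.466), the hormone gene Retn (-0.75 ± 0.23, 0.486) and the malic enzyme gene Me1 (-0.69 ± 0.17, 0.19) were lower without overlap and did not pass. Lep, the leptin gene, overlapped between the muscles. The 5 members with a positive difference lay between 0.01 (Car3) and 0.34 (Gpd1), and all of them overlapped. The count of fat cell markers called lay between 3 and 7, and the list median between -0.65 and -0.44, over the 25 alternatives tried, and both QF arrays numbered 2 left out gave 6 and -0.64.

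**Figure D2:**
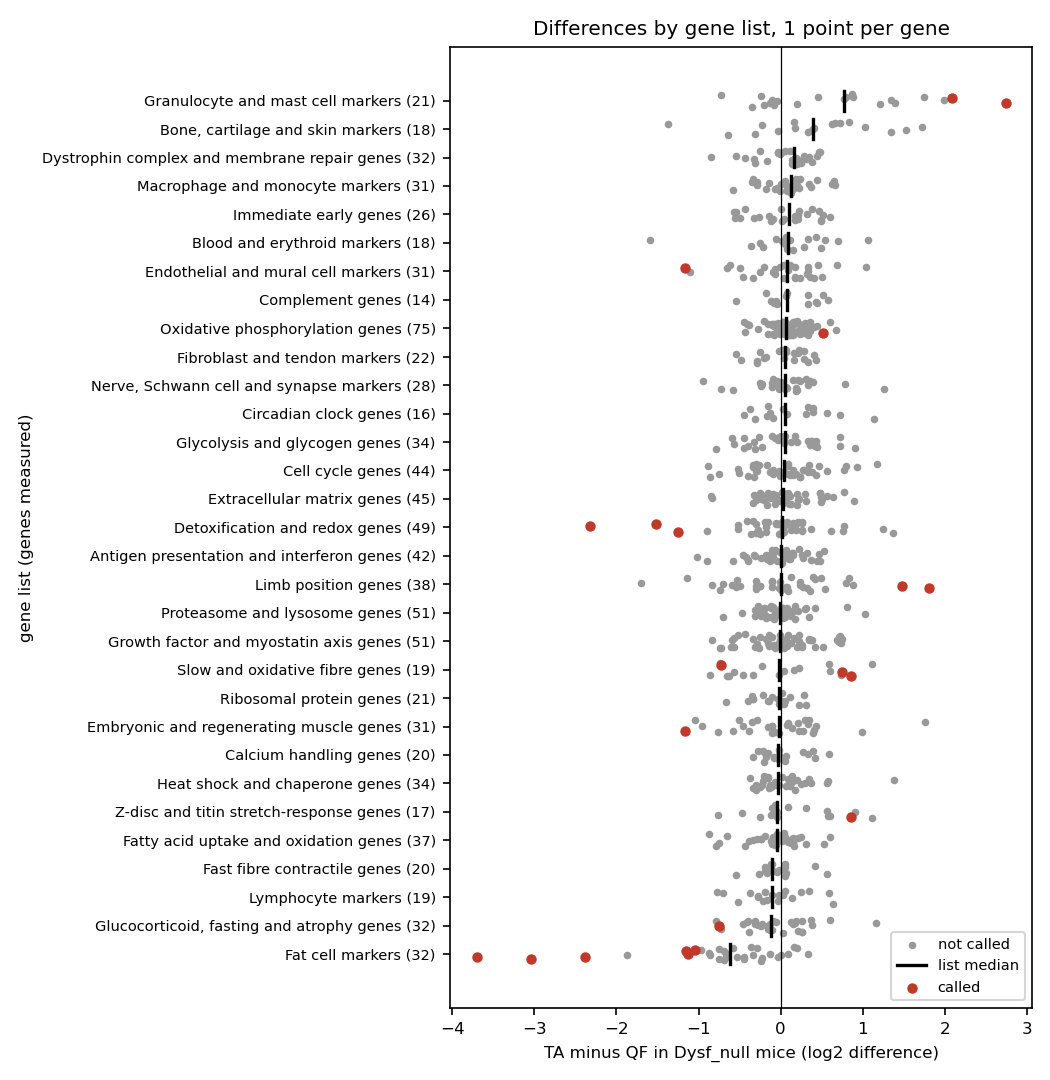
TA minus QF difference in Dysf_null mice (log2, x axis) for every measured gene of 31 lists (y axis, with the number measured), 1 point per gene by its probe set of highest mean, called genes in red and the list median as a black bar. Fat cell markers lie lowest, with a median of -0.62 and 6 genes called, and granulocyte and mast cell markers highest, with a median of 0.77 and 2 called.

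Ces1d, Cyp2e1 and Mgst1, enzymes of detoxification, fell in TA, but the list they belong to did not move as a whole. Of 49 detoxification and redox genes, 3 fell (beside 0.203% of all probe sets), 0 rose and 46 did not pass, with 26 differences positive, 23 negative and a list median of 0.02. Ces1d, a carboxylesterase of liver and fat, stood at 7.59, 8.54 and 7.91 in QF and at the floor on all 3 TA arrays by its probe set 101538_i_at, at least 11.2-fold lower (-3.49 ± 0.42, adjusted p = 0.00131). Its probe set 101539_f_at fell by 2.32 ± 0.42 (adjusted p = 0.04), a call lost when any 1 array other than Dysf_null_QF 2 and Control_QF 2 was dropped (adjusted p as high as 0.184). Cyp2e1, a cytochrome P450 that oxidises ethanol and acetone, stood at 9.84, 9.64 and 10.06 in QF and at 8.48, 8.004 and 8.50 in TA. It was 2.87-fold lower (-1.52 ± 0.16, adjusted p = 0.000655), with no overlap.

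Cdo1, the cysteine dioxygenase that starts taurine synthesis, stood at 9.74, 9.77 and 9.85 in QF and at 7.55, 8.07 and 7.82 in TA. It fell by 1.97 ± 0.15 on the log2 scale (adjusted p = 5.57e-05), and its QF arrays lay within 0.11 of each other. Mgst1, a membrane glutathione transferase, was 2.38-fold lower (-1.25 ± 0.20, adjusted p = 0.0152), a call lost when any 1 Dysf_null array other than QF 1 was dropped (adjusted p as high as 0.11). Aldh1a1, the retinal dehydrogenase, pointed the other way by 100068_at (0.77 ± 0.15) and missed the threshold (adjusted p = 0.0626). Its other probe set (161956_at) gave -0.01 ± 0.47 with overlap. A probe set named Mup5, for a major urinary protein, gave -1.93 ± 0.32 (adjusted p = 0.0177, and up to 0.123 without Dysf_null_QF 1 or 3 or Dysf_null_TA 1 or 2). The Mup genes are near-identical copies, so the member behind that signal is uncertain. The 5 called probe sets without a name that were lower in TA gave -2.40 (101566_f_at), -2.28 (101682_f_at), -2.24 (161815_f_at), -2.03 (102096_f_at) and -1.34 (99671_at).

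S100a9 and S100a8, which neutrophils store in quantity, were higher in TA. Of 21 granulocyte and mast cell markers measured, 2 rose (beside 0.0968% of all probe sets), 0 fell and 19 did not pass. Without overlap 7 were higher, beside 5.71% of all probe sets. The list median was 0.77, and its summed intensity was 2464 to 2713 on the TA arrays and 1576 to 1786 on the QF arrays. S100a9 (103887_at) stood at the floor, at the floor and at 4.96 in QF and at 7.32, 7.44 and 7.46 in TA. All 3 TA arrays lay well above the QF arrays, and the difference was 2.74 ± 0.33 (adjusted p = 0.00119). The size of this difference depends on where the floor is set. Over all alternatives it lay between 1.69 and 3.04 and was called in each. S100a8 (103448_at), whose protein pairs with that of S100a9, stood at 6.33, 6.57 and 5.08 in QF and at 8.24, 8.22 and 7.78 in TA (2.08 ± 0.38, adjusted p = 0.0416). Its QF arrays were spread widely, and its call was lost when any 1 array other than Dysf_null_QF 2 and Control_QF 2 was dropped (adjusted p as high as 0.254) and with the replicate number as a random block within each muscle (0.0778).

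Granule genes named by the rule for this list pointed the same way and did not pass. Camp, the cathelicidin gene, stood at 5.92, 6.79 and 5.88 in QF and at 7.79, 7.73 and 8.32 in TA (1.75 ± 0.37, adjusted p = 0.107). Ngp, a neutrophil granule protein, stood at the floor, at the floor and at 4.74 in QF and at 5.16, 7.51 and 7.10 in TA (1.99 ± 0.47, adjusted p = 0.187). Its array Dysf_null_TA 1 lay far below the others, and without it the difference was 2.71 and was called (adjusted p = 0.00211). Ngp was called in only 1 of 12 fits that left out 1 array and 1 of 12 alternative settings. Its adjusted p was as high as 0.853 among them. Chil3, Mmp9 and Mpo, named after their values were seen, were also higher without overlap, at 1.39, 1.34 and 1.21. Other markers were not higher: Ly6g, a surface marker of neutrophils, was at the floor on 4 of the 6 arrays (-0.13 ± 0.30), and Csf3r, their growth factor receptor, gave -0.11 ± 0.30. The mast cell genes Cma1 and Cpa3 gave 0.88 and 0.87 with overlap. Lcn2, named after its values were seen, gave -0.23 by the probe set counted in the list and 1.05 by another, neither of them called.

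Markers of bone, cartilage and skin gave mostly positive differences beside the granulocyte list. Of 18 measured, 0 were called and 13 were positive. Without overlap 6 were higher and 1 lower, beside 5.71% and 4.51% of all probe sets, and the median was 0.39, with a summed intensity of 2465 to 2630 in TA and 1570.21 to 2517 in QF. The collagenase gene Mmp13 gave 1.72 ± 0.40 (adjusted p = 0.174), the osteoclast protease gene Ctsk 1.02 ± 0.29 (0.407) and Col11a1, a cartilage collagen, 1.53 ± 0.46 (0.477). Acan, the main proteoglycan of cartilage, pointed the other way (-1.37 ± 0.54, adjusted p = 0.787). Ibsp, named after its values were seen, gave 0.40 by the probe set counted in the list and 2.25 by another, neither of them called. Ctsk passed in 2 of 13 alternative settings, among them that without both QF arrays numbered 2 (adjusted p = 0.048). It passed in 0 of 12 fits that left out 1 array. Of 18 blood and erythroid markers 0 were called (median 0.09), and the transferrin receptor gene Tfrc was the nearest (1.07 ± 0.20, adjusted p = 0.0528, and 0.0429 with the random block). Tfrc passed in 5 of 13 alternative settings and in 1 of 12 fits that left out 1 array. The part of the bone and blood lists in the neutrophil result was not tested. Macrophage and monocyte markers had 0 of 31 called, a median of 0.12 and overlapping sums (4225 to 4619 in TA, 4093 to 4575 in QF), and lymphocyte markers had 0 of 19 called.

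Among genes that mark position along the limb, Hoxa11 and Zic1 separated the muscles. Of 38 measured, 2 rose in TA (beside 0.0968% of all probe sets), 0 fell and 36 did not pass, with a median of -0.00081. Without overlap 4 were higher and 3 lower, beside 5.71% and 4.51% of all probe sets. Hoxa11, a homeobox gene of the middle limb segment, was at the floor on all 3 QF arrays and stood at 6.24, 6.57 and 6.18 in TA, at least 3.49-fold higher (1.80 ± 0.25, adjusted p = 0.00463). Zic1, a zinc finger transcription factor, was also at the floor on all 3 QF arrays and stood at 5.91, 6.18 and 5.92 in TA, at least 2.78-fold higher (1.48 ± 0.23, adjusted p = 0.0134). Both were off the floor only in TA among these 6 arrays, so their sizes depend on where the floor is set. Over all alternatives the difference of Hoxa11 lay between 0.61 and 3.15 and that of Zic1 between 0.28 and 2.80. Each call was lost in 3 of 13 alternative settings, and that of Zic1 also when any 1 Dysf_null array other than TA 1 was dropped (adjusted p as high as 0.0764).

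Of 16 Hox genes on this list, Hoxa11 was the only one called. Hoxa10, its neighbour in the cluster, gave 0.79 ± 0.49, and Hoxc9 was lower without overlap (-0.53 ± 0.27), neither of them past the threshold. Among all measured Hox genes, on the list or not, Hoxa7 (-0.83), Hoxa13 (-0.73) and Hoxb6 (-0.60) pointed away from Hoxa11 and did not pass. The remaining Hox genes went both ways, with none called. Six2, a homeobox gene of tendon and connective tissue, gave -1.70 ± 0.62 and Meis3 gave -1.14 ± 0.63 (adjusted p = 0.755 and 0.897). Matn2, a matrix protein of basement membranes and peripheral nerve, was at the floor on all 3 QF arrays and stood at 5.98, 5.47 and 6.07 in TA by its probe set 161776_at (1.32 ± 0.24, adjusted p = 0.04). Its other probe set gave 0.38 ± 0.35 and did not pass. The Matn2 call was lost when any 1 array other than Dysf_null_TA 2, Control_TA 2 and Control_QF 2 was dropped (adjusted p as high as 0.205) and with the random block (0.123).

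Slow fibre genes did not move as 1 group. Of 19 slow and oxidative fibre genes measured, 2 rose, 1 fell and 16 did not pass, with a median of -0.02. Over all probe sets 0.0968% rose and 0.203% fell. Without overlap 5 of the 19 were higher and 6 lower, beside 5.71% and 4.51% of all probe sets. Genes for contractile proteins of slow fibres gave negative differences, of which 1 passed. The myosin light chain gene Myl2 stood at 11.17, 11.21 and 11.27 in QF and at 10.36, 10.43 and 10.68 in TA (-0.72 ± 0.12, adjusted p = 0.0161). The QF arrays of Myl2 were nearly equal, but its call was lost when any 1 Dysf_null array other than TA 3 was dropped (adjusted p as high as 0.104). The tropomyosin gene Tpm3 gave -0.57 ± 0.11 (adjusted p = 0.0737), and, named after their values were seen, the troponin genes Tnni1 (-0.74) and Tnnc1 (-0.86), the light chain gene Myl3 (-0.66) and the myosin heavy chain gene Myh7 (-0.62) were all lower without overlap and did not pass.

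Fhl1, a LIM protein of the sarcomere, rose in TA on both of its called probe sets. By 97500_g_at it stood at 10.60, 10.53 and 11.14 in QF and at 12.04, 12.23 and 12.24 in TA (1.41 ± 0.19, adjusted p = 0.00388). By 97498_at it stood at 11.97, 11.90 and 12.02 in QF and at 12.73, 12.80 and 12.92 in TA (0.86 ± 0.11, adjusted p = 0.00311). Both calls held when any single array was left out. Mb (100614_at) stood at 11.66, 11.31 and 11.73 in QF and at 12.08, 12.46 and 12.40 in TA (0.74 ± 0.14, adjusted p = 0.0421), a call lost when any 1 array other than Dysf_null_TA 1 was dropped (adjusted p as high as 0.267). Its other probe set (100615_at) pointed the other way, at -1.17 ± 0.45, and did not pass (adjusted p = 0.779).

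**Figure D3:**
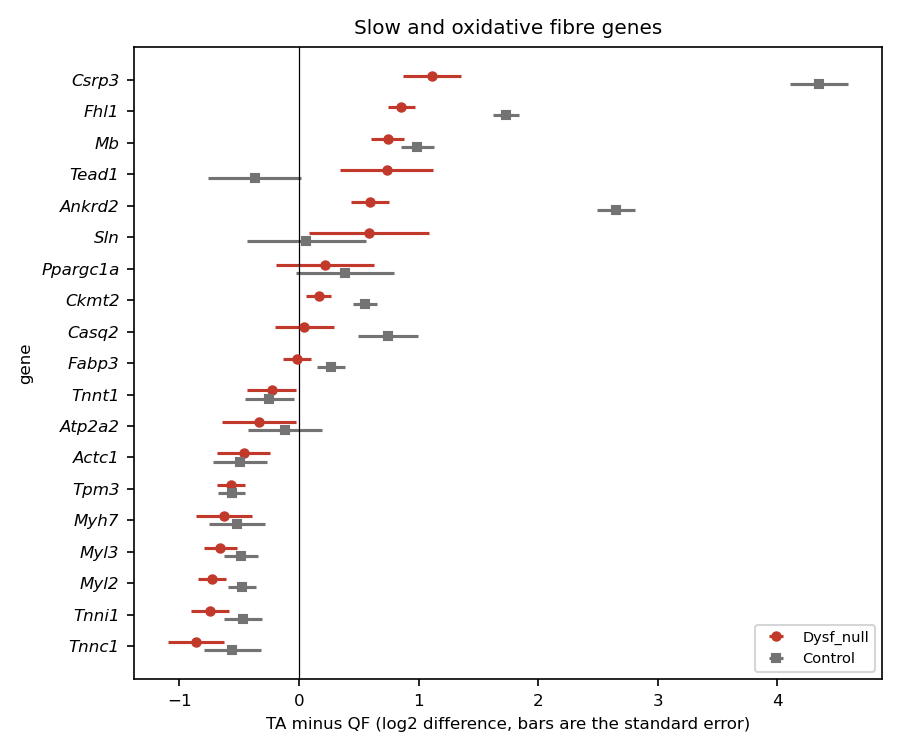
TA minus QF difference (log2, x axis, with its standard error) of the 19 measured slow and oxidative fibre genes (y axis) in Dysf_null mice (red circles) and Control mice (grey squares). Myl2, Tnni1, Tnnc1, Myl3, Tpm3 and Myh7 lie left of 0 in both genotypes, and Csrp3 and Ankrd2 lie near 1.11 and 0.59 in Dysf_null mice against 4.35 and 2.65 in Control mice.

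Energy genes of the mitochondrion and of glycolysis showed small differences. Of 75 oxidative phosphorylation genes, 1 rose (beside 0.0968% of all probe sets) and 74 did not pass. A positive difference was seen for 53 (beside 52.2% of all probe sets). Without overlap 11 were higher and 2 lower, beside 5.71% and 4.51%, and the median was 0.07. Sdhd, the membrane anchor of succinate dehydrogenase, stood at 11.73, 11.69 and 11.77 in QF and at 12.27, 12.19 and 12.29 in TA (0.52 ± 0.09, adjusted p = 0.0317). That was the smallest difference called, between groups of little spread, and the call was lost when any 1 Dysf_null array, Control_TA 2 or Control_TA 3 was dropped (adjusted p as high as 0.187). The cytochrome oxidase gene Cox6a1 gave -0.39 ± 0.13 and did not pass. Of 34 glycolysis and glycogen genes 0 were called. Without overlap 6 were higher and 2 lower, beside the same shares of all probe sets. The 4 glycolysis genes with the smallest p were Pfkm (0.41 ± 0.11), Tpi1 (0.37 ± 0.10), Pkm (0.43 ± 0.12) and the hexokinase gene Hk1 (-0.59 ± 0.18). Of 37 fatty acid uptake and oxidation genes 0 were called, and the median was -0.04. Without overlap 2 of the 37 were higher and 4 lower, beside 5.71% and 4.51% of all probe sets. There the lipase gene Lipe gave -0.88 ± 0.32, the fatty acid binding protein gene Fabp4 -0.75 ± 0.31, the acyltransferase gene Dgat1 -0.66 ± 0.26 and the carnitine carrier gene Slc25a20 0.53 ± 0.19.

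Genes of embryonic muscle, of smooth muscle and of atrophy gave single calls. Acta2, the smooth muscle actin that developing fibres also make, stood at 9.70, 10.24 and 10.08 in QF and at 8.58, 9.04 and 8.91 in TA (-1.16 ± 0.19, adjusted p = 0.0197). It was the only call among 31 embryonic and regenerating muscle genes and among 31 endothelial and mural cell markers, and it was lost when any 1 Dysf_null array other than QF 1 was dropped (adjusted p as high as 0.121). The neonatal myosin heavy chain gene Myh8 gave -0.96 ± 0.30 (adjusted p = 0.53). Gadd45a, a growth arrest gene of denervated and fasting muscle, was the only call among 32 glucocorticoid, fasting and atrophy genes (-0.75 ± 0.14, adjusted p = 0.0487). The Gadd45a call was lost whichever of the 12 arrays was dropped (adjusted p as high as 0.267) and with the random block (0.0725). Mybph, a myosin-binding protein of the thick filament, stood at 11.60, 11.43 and 11.24 in QF and at 10.46, 10.15 and 10.29 in TA. It was 2.18-fold lower (-1.13 ± 0.13, adjusted p = 0.00093) with no overlap.

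Programmes of membrane repair, connective tissue and immunity gave 0 calls in limma between the muscles of Dysf_null mice, as did several others. They included 32 dystrophin complex and membrane repair genes (median 0.17), 45 extracellular matrix genes (0.03), 22 fibroblast and tendon markers (0.06), 14 complement genes (0.07), 42 antigen presentation and interferon genes (0.01), 20 calcium handling genes (-0.03) and 20 fast fibre contractile genes (-0.10). Heat shock, immediate early, circadian clock, cell cycle, ribosomal protein, proteasome and lysosome, growth factor, lymphocyte and nerve lists also gave 0. Over all 10331 probe sets, 591 had an unadjusted p from limma under 0.05. A share of 0.05 would do so with no difference between the muscles. The median SE of a difference was 0.32, and a call needed a difference several times its SE. Gadd45a passed narrowly at -0.75 ± 0.14, and Tfrc missed at 1.07 ± 0.20. With an SE of 0.32, a difference of 1.07 would therefore not have been called. A list with 0 calls is thus not shown to be equal between the muscles.

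The same muscle difference was then set beside that of Control mice. In Control mice 76 probe sets (0.736%) were called, 42 higher and 34 lower in TA. Of the 31 calls in Dysf_null mice, 19 were also called in Control mice, 61.3% of the first list and 25% of the second, and 18 of the 19 pointed the same way. Across all probe sets tested, the muscle differences of both genotypes correlated at r = 0.473 (Spearman's rho = 0.450), a description over probe sets that share arrays, which fell to 0.212 without both QF arrays numbered 2. A gene called in 1 genotype only is not shown to differ between them, and of the 12 probe sets called only in Dysf_null mice, 2 were called in the test of the difference.

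Fat cell markers were lower in TA in both genotypes, with medians of -0.62 in Dysf_null and -0.58 in Control mice and 6 and 8 genes called. Cidea gave -3.14 in Control mice, Pck1 -2.23, Adipoq -1.46, Cdo1 -2.55 and Cyp2e1 -1.91, beside -3.70, -2.38, -1.12, -1.97 and -1.52 in Dysf_null mice. By 99507_at, Ucp1 was at the floor on all 6 TA arrays, and by 161422_f_at it was at the floor on 1 of them. In QF it stood by 99507_at at 7.45 to 7.62 in Dysf_null and at 5.71 to 6.21 in Control mice, and the difference between the genotypes (-1.63, limited by the floor in TA) did not pass in the main test (adjusted p = 0.349) but did with the random block (0.0245). Hoxa11 and Zic1 were at the floor on all 6 QF arrays and differed by similar amounts in Control mice (1.90 and 1.32). In Control mice the slow contractile genes Myl2 and Tpm3 gave -0.48 (adjusted p = 0.112) and -0.56 (0.043).

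**Figure D4:**
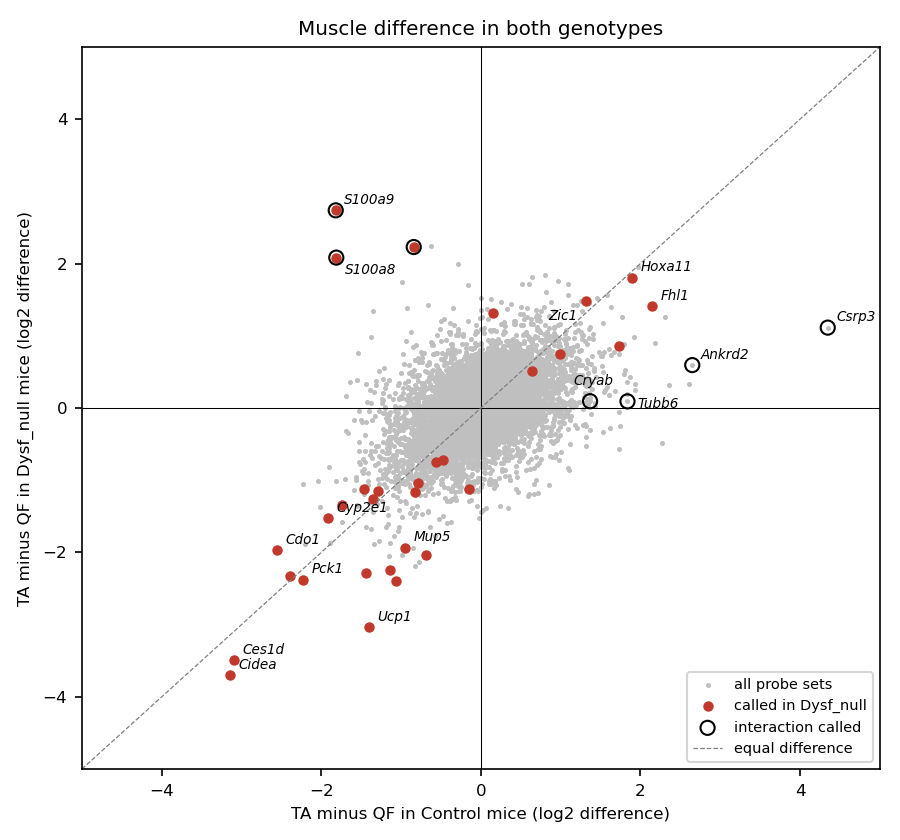
TA minus QF difference in Control mice (log2, x axis) against that in Dysf_null mice (log2, y axis) for the 10331 probe sets tested, with calls in Dysf_null mice in red, calls of the difference between genotypes ringed, and the line of equal differences dashed. Cidea, Ces1d, Pck1 and Hoxa11 lie near that line, S100a8 and S100a9 lie at upper left with opposite signs, and Csrp3 and Ankrd2 lie at right with larger differences in Control mice.

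The muscle difference itself differed between genotypes for 7 probe sets (0.0678%), 3 with a more positive and 4 with a more negative value in Dysf_null mice. S100a9 was higher in TA in Dysf_null mice and lower in TA in Control mice: the Control arrays stood at 7.02, 5.96 and 6.48 in QF and at the floor, 4.64 and 4.84 in TA. The Control difference was -1.82 (adjusted p = 0.0201), and the difference between the genotypes was 4.56 ± 0.46 (adjusted p = 0.00115). Arrays at the floor in Dysf_null QF and in Control TA limit the sizes given for S100a9. S100a8 crossed in the same way, with Control arrays at 7.77, 7.31 and 7.65 in QF and at 6.14, 5.38 and 5.78 in TA. The S100a8 difference between the genotypes was 3.89 ± 0.54 (adjusted p = 0.0128), a call lost when any 1 of Dysf_null_TA 1 and 2, Control_QF 1 and 3 and Control_TA 2 and 3 was dropped (adjusted p as high as 0.0776). The granulocyte list as a whole had a median of -0.29 in Control mice. An unnamed probe set, 97519_at, stood at 7.91 to 8.35 in Dysf_null QF and at 10.31 to 10.36 in Dysf_null TA, and at 7.63 to 8.15 and 6.69 to 7.32 in Control (3.07 ± 0.29, adjusted p = 0.00108).

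Csrp3, Ankrd2 and Cryab, genes of the Z-disc and its stretch response, differed more between the muscles in Control than in Dysf_null mice. Csrp3, the muscle LIM protein, stood at 9.22, 8.55 and 9.24 in Dysf_null QF and at 10.07, 10.10 and 10.19 in Dysf_null TA (1.11 ± 0.24, adjusted p = 0.123, and 0.042 with the random block). This difference passed in 4 of 13 alternative settings and in 1 of 12 fits that left out 1 array. In Control mice Csrp3 stood at 8.63, 7.84 and 8.87 in QF and at 12.80, 12.63 and 12.96 in TA. The QF levels of the genotypes overlapped and the TA levels did not, and the Csrp3 difference between genotypes was -3.23 ± 0.34 (adjusted p = 0.00142). Ankrd2, a titin-binding ankyrin repeat protein, gave 0.59 ± 0.16 in Dysf_null and 2.65 ± 0.16 in Control mice (-2.05 ± 0.23, adjusted p = 0.00156).

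Cryab, the small heat shock protein that guards desmin, gave 0.09 in Dysf_null and 1.37 in Control mice by 162308_f_at (-1.27 ± 0.20, adjusted p = 0.0339). Its other probe set gave 0.07 and -0.25, and the call was lost when any 1 array other than Dysf_null_TA 1 and Control_TA 2 was dropped (adjusted p as high as 0.139). Tubb6, a tubulin that regenerating fibres make, gave 0.09 and 1.84 (-1.75 ± 0.24, adjusted p = 0.0119), a call lost without Dysf_null_TA 2, Control_TA 2 or Control_TA 3 (up to 0.0617). Over the 17 measured Z-disc and titin stretch-response genes the median was -0.04 in Dysf_null and 0.49 in Control mice, and the sign of the first turned in 7 of 25 alternatives. Of these genes only Fhl1 was called in Dysf_null mice, against 5 in Control mice.

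**Figure D5:**
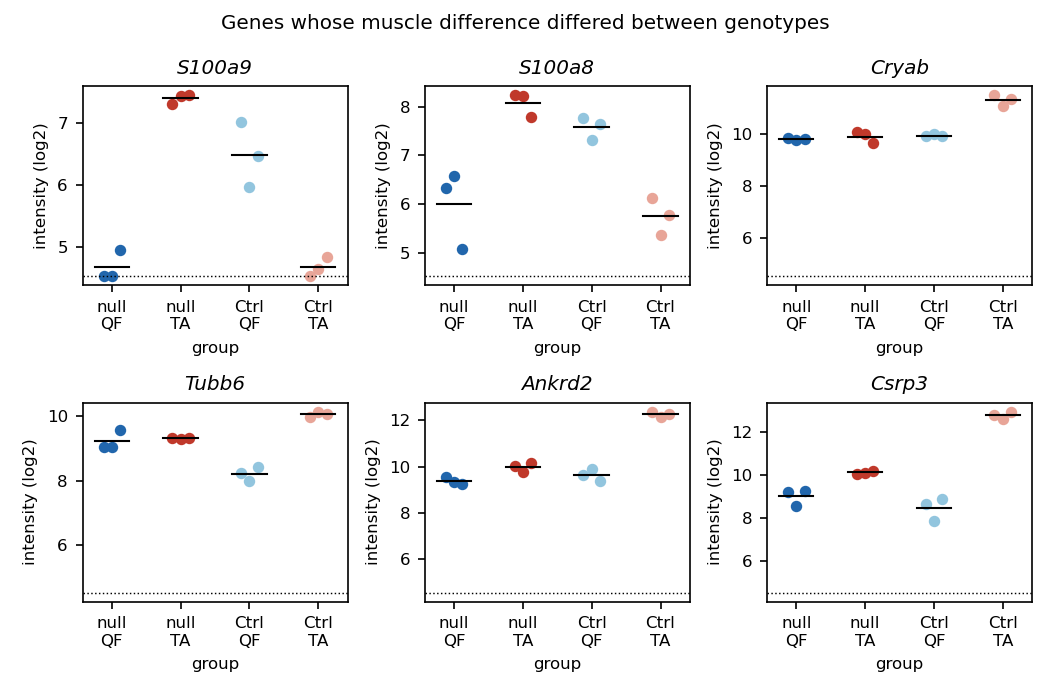
Normalized log2 intensity (y axis, each panel on its own scale) of the 6 named genes whose muscle difference differed between genotypes, by group (x axis, null for Dysf_null and Ctrl for Control), 1 point per array with the group mean as a bar and the floor dotted. S100a9 and S100a8 are high in Dysf_null TA and Control QF, and Csrp3, Ankrd2, Cryab and Tubb6 are highest in Control TA.

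Replicate numbers tied the genotypes together clearly within QF and only weakly within TA. The deviations of same-numbered arrays from their group means correlated at 0.39, 0.71 and 0.66 in QF and at 0.18, 0.11 and 0.23 in TA. A random block on the replicate number within each muscle used 1 correlation, 0.52, for both muscles. That is above each TA value, so calls that rest on the block are less certain. With this block, 49 probe sets (0.474%) were called for the difference between genotypes in place of 7, all 7 among them. Of the 49, 28 were more positive and 21 more negative in Dysf_null mice. The 49 took in 4 of 21 granulocyte and mast cell markers, all more positive, with Camp (2.74, adjusted p = 0.00264) and Chil3 (2.31, 0.0486) joining S100a8 and S100a9. They took in 5 of 17 Z-disc and titin stretch-response genes, all more negative, with Fhl1 (-0.87, 0.00304) and Hspb8 (-0.74, 0.0102) joining Csrp3, Ankrd2 and Cryab. They also took in 6 of 32 glucocorticoid, fasting and atrophy genes, all more positive, among them Ctsl (0.87, 0.0055), Cebpd (0.98, 0.00741) and Ddit4 (1.65, 0.00134). Of the other lists, 3 of 19 slow and oxidative fibre genes and 3 of 34 heat shock and chaperone genes were among the 49 and more negative, 3 of 49 detoxification and redox genes were more positive, and of 51 proteasome and lysosome genes 2 were more positive and 1 more negative. The bone, cartilage and skin list had 2 of 18, both more positive, 7 lists had 1 each and 16 had 0. A gene can be on several lists, and the 3 slow fibre genes were also among the Z-disc genes. Each gene was counted by its probe set of highest mean, so a count can miss another probe set of a member. By such other probe sets, the granulocyte list gene Lcn2 (1.92, adjusted p = 0.0132) and the bone list gene Ibsp (2.88, 0.00835) were also among the 49. Mybph, lower in TA in Dysf_null mice but at -0.15 in Control mice (adjusted p = 0.719), was among the 49 (-0.98, adjusted p = 0.00143, and 0.125 without the block). The count for the muscle difference in Dysf_null mice was 31 with and without this block, with 28 probe sets shared.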

How the data were processed

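Total RNA of 12 muscle samples had been hybridised to single-channel arrays. The deposited values were linear intensities, 1 per probe set, scaled by the authors to a common trimmed mean (197.6 to 198.6 without the lowest and highest 2%, as the values show). The software for background correction and summarisation is not given in the sources used here.

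After 66 array controls were left out, the other 12422 probe sets were quantile normalized, and a floor at the 25th percentile (intensity 23.025) preceded log2. The 10331 probe sets that exceeded it on 3 or more arrays entered a fit with limma 3.58.1 in R 4.3.3: group means over 12 arrays, 8 residual degrees of freedom, an intensity trend, two-sided. No depth applies to arrays, and their number limits the precision. The steps were tested on simulated data. Figures were drawn with matplotlib 3.10.9.

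Names came from the platform annotation, where 10833 probe sets had 1 symbol, 396 several and 1193 none. Gene lists (31 lists, 909 genes measured) used the probe set of highest mean. The members and lists were chosen with earlier results of these data known. Genes were named by a rule: up to 15 called each way without overlap and up to 4 per list by p. The rule also took every measured Hox gene and up to 10 each way for the interaction. Not every Hox gene that qualified is printed. Others are said to be named after their values were seen.

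Replicate numbers come from the labels. Same-numbered TA and QF arrays of Dysf_null mice deviated together at 0.08, -0.14 and 0.12, so the numbers did not pair the muscles. Between the genotypes, same-numbered arrays deviated together clearly in QF and only weakly in TA, by the check in the text. Alternatives changed the normalization, floor, filter, variance model, arrays, weights and replicate block.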

Additional observations from a re-analysis of the deposited data

Results flagged for a closer look

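For 7 probe sets the TA minus QF difference differed between Dysf_null and Control mice by limma's interaction test. On the log2 scale, Dysf_null minus Control, the values were 4.56 for S100a9, 3.89 for S100a8 and 3.07 for the unnamed 97519_at, which had more positive differences in Dysf_null mice. They were -3.23 for Csrp3, -2.05 for Ankrd2, -1.75 for Tubb6 and -1.27 for Cryab, which had more positive differences in Control mice.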

How the results depend on the processing

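None of the 31 probe sets called in Dysf_null mice changed direction in any alternative that tested it, 17 held without any single array, and 7 held in every alternative and with every array left out. The count of 31 was 14 with median scaling, 9 with the 6 arrays of one genotype fitted alone, 52 with array weights, and 18 with the replicate block within each genotype. That block treats same-numbered TA and QF arrays as paired, which is not known. Leaving out each array gave counts of 19 to 38, with 19 without Dysf_null_TA 2 and 20 without Dysf_null_TA 3. Without both QF arrays numbered 2 the count was 30, of which 22 were among the 31. The Control count of 76 was 31 with median scaling, 42 without the intensity trend, 21 with its 6 arrays alone and 32 with the replicate block within genotype, and 35 to 147 with an array left out (147 without Control_QF 3, 46 without Control_QF 1, and 36, 39 and 35 without Control_TA 1, 2 and 3). The interaction count of 7 was 49 with the random replicate block within each muscle and 4 to 8 with an array left out (4 without Dysf_null_TA 2 and without Control_TA 3). The cause of these changes was not tested, apart from the fewer arrays behind a left-out or single-genotype fit. Levels near the floor limit what the arrays resolve.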
